A study of Mus musculus with 21 samples.

Results

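The comparison set 2 arrays of the mutant CEBPB(V285A) against 2 arrays of the mutant CREB1(A297V), all double-stranded with 5-methylcytosine (5mC), out of 21 protein binding microarrays in 10 groups. The arrays were chosen by their labels and not by any measured value. The study placed the DNA-binding domains of the mouse basic leucine zipper (bZIP) proteins CEBPB and CREB1, and 1 mutant of each, on DNA made with cytosine (C), 5mC or 5-hydroxymethylcytosine (5hmC). In this series wild-type CEBPB is present on 5hmC alone. Each domain carried an N-terminal GST tag and was made from a plasmid in a cell-free transcription and translation reaction. The mutants were made from the wild-type constructs: CEBPB(V285A) has alanine in place of valine, and CREB1(A297V) has valine in place of alanine, at matching positions of the basic region. An array of synthetic oligonucleotides was made double-stranded by primer extension, so that 5mC lay on the newly made strand alone and the printed strand had plain cytosine. The unit of measurement was the 8-mer, every sequence of 8 bases, and all 65535 in the deposited matrix were considered. Of these, 64511 were carried by at least 8 probes and were tested.

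A bZIP protein binds DNA as a dimer, with 1 basic region in the major groove over each of 2 adjoining half-sites. C/EBP proteins are known for the palindrome made of the half-site gcaa and its reverse complement, CREB-type proteins for the cyclic AMP response element (CRE) with the half-site gtca, and the PAR subfamily for a palindrome of the half-site gtaa. The base before the half-site decides whether a site holds a CpG, where mammalian cells methylate DNA. C/EBP proteins are known to bind certain methylated CpG sites, and CREB1 is known to lose binding when the CRE is methylated.

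The results turn on 8-mers that join these half-sites. They are written as the synthesised strand from 5′ to 3′, and the capitals mark the cytosines that were 5mC on these arrays. The first lines are the 9 joins of a left part of 4 bases with a half-site, and the last lines are the site of the C/EBP-ATF heterodimer, called the composite site here, and its reverse complement.
CRE palindrome: tgaCgtCa
CRE left part with PAR half-site: tgaCgtaa
CRE left part with C/EBP half-site: tgaCgCaa
PAR left part with CRE half-site: ttaCgtCa
PAR palindrome: ttaCgtaa
PAR left part with C/EBP half-site: ttaCgCaa
C/EBP left part with CRE half-site: ttgCgtCa
C/EBP left part with PAR half-site: ttgCgtaa
C/EBP palindrome: ttgCgCaa
Composite site: tgatgCaa
Composite site, other strand: ttgCatCa
The C/EBP half-site and the CRE half-site each hold 1 cytosine of their own, and the PAR half-site holds none in this orientation.

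The deposited value of an 8-mer was a Z-score, centred near 0 on every array and not scaled between arrays. The scales differed between the groups. The mean of the 100 highest Z-scores was 77.9 and 87.9 on the CEBPB(V285A) arrays, against 9.03 and 13.3 on the CREB1(A297V) arrays. Replicate arrays correlated across 8-mers at a Pearson r of 0.968 for CEBPB(V285A) and 0.734 for CREB1(A297V), and arrays of different mutants at 0.262 to 0.338. Local background was 487 and 385 intensity units on the CEBPB(V285A) arrays and 1420 and 1778 on the CREB1(A297V) arrays, where 23.0% and 16.2% of the spots were below it. The CEBPB(V285A) 5mC arrays carried 1 array-series number in the deposited file names and the CREB1(A297V) 5mC arrays another, so protein and array series cannot be told apart. Whether the replicate arrays used separately made protein is not stated in the labels, and the p-values measure the spread between arrays alone.

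CEBPB(V285A) had far higher Z-scores than CREB1(A297V) at 8-mers that end in the C/EBP half-site, while 8-mers with the PAR half-site were more often lower than higher in CEBPB(V285A). Of 64511 8-mers, 2664 were higher in CEBPB(V285A) (4.13%) and 930 were lower (1.44%), together 3594 (5.57%), by limma with Benjamini-Hochberg adjustment over all 8-mers at an adjusted p under 0.05. The difference was at least 5 Z units for 842 of the higher and 13 of the lower ones, and at least 20 for 209 and 0. The C/EBP half-site in this orientation stood in 833 of the higher 8-mers (31.3%) and 1 of the lower (0.108%), against 1.98% of all tested. The PAR half-site in either orientation stood in 79 of the higher 8-mers (2.97%) and 201 of the lower (21.6%), against 3.95% of all tested. Since the scales differ, the balance of higher and lower calls depends on the scaling: it was 1783 to 1012 after quantile normalization between arrays (2.76% and 1.57% of all, together 4.33%), 2175 to 1410 from background-corrected and quantile-normalized intensities, and 106 to 514 with each array divided by the mean of its 100 highest Z-scores (0.164% and 0.797%, together 0.961%). On that divided scale 96 of the 106 higher 8-mers held the C/EBP half-site and 353 of the 514 lower ones the PAR half-site. Leaving out 1 array lowered the count of 3594 by over 1.5 times in each case, to 2342 and 1856 without CEBPB(V285A) replicate 1 and 2, and to 2140 and 2275 without CREB1(A297V) replicate 1 and 2.

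**Figure D1:**
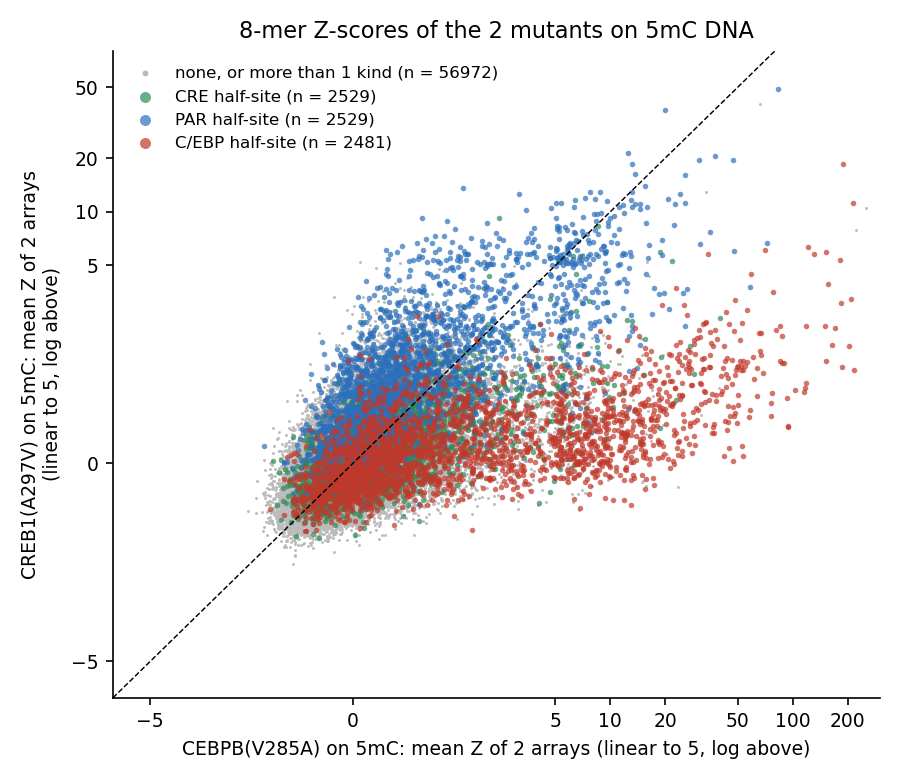
Mean Z-score of each 8-mer over the 2 CEBPB(V285A) arrays (x axis) and the 2 CREB1(A297V) arrays (y axis), both linear up to 5 and logarithmic above. Each point is 1 tested 8-mer, coloured by the half-site it holds in either orientation, and the dashed line marks equal Z-scores. The 8-mers with the C/EBP half-site run far to the right at low CREB1(A297V) values. Those with the PAR half-site lie around and above the line, but some of the highest lie below it, among them ttaCgtaa (83.3 and 49.0).

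Among the fixed 8-mers, those with the C/EBP half-site were the highest of CEBPB(V285A). The 8-mer ttaCgCaa had Z-scores of 255.8 and 251 with CEBPB(V285A), against 7.94 and 13.1 with CREB1(A297V). The difference was 243 (SE 16.6, adjusted p = 1.6e-11, limma), and the 8-mer ranked 1st of all for CEBPB(V285A) and 38th for CREB1(A297V). The 8-mer tgaCgCaa had 238 and 205 with CEBPB(V285A), against 6.68 and 9.14 with CREB1(A297V), a difference of 213 (adjusted p = 1.4e-12). In both, the 2 mutants were far apart on every array. The C/EBP palindrome ttgCgCaa had 200.2 and 215 with CEBPB(V285A), against 3.19 and 5.13 with CREB1(A297V), a difference of 204 (adjusted p = 6.8e-12). The composite site tgatgCaa, whose only 5mC lies inside the C/EBP half-site, had 207 and 202 with CEBPB(V285A), against 3.83 and 2.12 with CREB1(A297V), a difference of 201 (adjusted p = 3.3e-13). These 4 8-mers ranked 1, 2, 5 and 6 for CEBPB(V285A) and 38, 68, 424 and 1133 for CREB1(A297V). After quantile normalization the difference kept its sign in all 4, and the call held for ttaCgCaa and ttgCgCaa (adjusted p = 6.5e-06 and 0.025) but not for tgaCgCaa and tgatgCaa (0.073 and 0.055). Over 16 other settings ttaCgCaa was called in 15, ttgCgCaa in 16, tgaCgCaa in 14 and tgatgCaa in 14. In the raw data the median spot carrying ttaCgCaa had 37845 and 33788 intensity units with CEBPB(V285A), against 4189 and 5668 with CREB1(A297V).

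Other 8-mers with the C/EBP half-site were among the largest positive differences. The 8-mer aCgCaatC, which holds the C/EBP half-site after 5mC in its middle, had 194 and 240.1 with CEBPB(V285A), against 0.40 and 4.34 with CREB1(A297V), a difference of 215 (adjusted p = 2.4e-12). With thymine before the half-site, ttatgCaa had 181 and 191 with CEBPB(V285A), against 2.01 and 2.84 with CREB1(A297V), a difference of 183 (adjusted p = 7.0e-08). The 8-mer CaaCgCaa had 121 and 120.4 with CEBPB(V285A), against 5.33 and 7.28 with CREB1(A297V), a difference of 114 (adjusted p = 1.8e-15). In none of the 3 did the groups overlap. All 3 differences stayed above 0 after quantile normalization, where ttatgCaa lost its call (adjusted p = 0.088). Among the 8-mers that end in the C/EBP half-site, CtaCgCaa had the highest mean with CREB1(A297V). It had 181 and 198 with CEBPB(V285A), against 12.6 and 24.3 with CREB1(A297V), a difference of 171 (adjusted p = 1.1e-10) that became -2.45 after quantile normalization (adjusted p = 0.96). It ranked 7th for CEBPB(V285A) and 9th for CREB1(A297V).

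At the PAR palindrome the order of the mutants depended on the scale. The 8-mer ttaCgtaa had 89.3 and 77.2 with CEBPB(V285A), against 46.1 and 52.0 with CREB1(A297V). The difference of 34.2 (SE 8.29, adjusted p = 0.011) turned to -91.1 after quantile normalization (adjusted p = 1.5e-06), to -3.49 on the divided scale and to -1.60 on the log2 scale of the background-corrected intensities. With only these 4 arrays in the fit it was not called (adjusted p = 0.51, range 1.5e-06 to 0.96 over 16 other settings), nor without CEBPB(V285A) replicate 1 (0.258), CEBPB(V285A) replicate 2 (0.0832) or CREB1(A297V) replicate 1 (0.114). In ranks it was 32nd for CEBPB(V285A) and 1st for CREB1(A297V). The 8-mer tgaCgtaa had 61.9 and 69.5 with CEBPB(V285A), against 35.02 and 45.2 with CREB1(A297V), with no call (difference 25.6, adjusted p = 0.58), and -64.6 after quantile normalization (adjusted p = 3.0e-08). It ranked 44th for CEBPB(V285A) and 2nd for CREB1(A297V). The 8-mer ttgCgtaa had 33.4 and 33.2 with CEBPB(V285A), against 9.71 and 16.0 with CREB1(A297V), with no call (difference 20.5, adjusted p = 0.17) and the opposite sign after quantile normalization (-25.01, adjusted p = 0.52). The Z-scores of both mutants on these 3 sites lay well above those of most 8-mers, whose 99th percentile was 8.34 and 9.09 for CEBPB(V285A) and 3.48 and 4.05 for CREB1(A297V).

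Beside each of the 3 fixed left parts the CRE half-site had the lowest mean Z-score of the 3 half-sites on 5mC with both mutants. On CREB1(A297V) replicate 1 alone the order turned for 1 left part, with 9.18 for tgaCgtCa and 6.68 for tgaCgCaa. Replicate 2 gave 2.68 and 9.14. The CRE palindrome tgaCgtCa had 16.1 and 21.6 with CEBPB(V285A), against 9.18 and 2.68 with CREB1(A297V), a difference of 12.9 that was not called (SE 14.8, adjusted p = 0.71). The fit used 1 spread per 8-mer over all groups, and with only these 4 arrays the SE was 3.08 and the adjusted p 0.015 (range 0.015 to 0.93 over 16 other settings). The 8-mer ttaCgtCa had 16.9 and 14.9 with CEBPB(V285A), against 7.54 and 2.97 with CREB1(A297V), and was not called either (difference 10.7, adjusted p = 0.69). Both differences were below 0 after quantile normalization (-9.76 and -4.99). The 8-mer ttgCgtCa, with the C/EBP left part, had 16.8 and 15.2 with CEBPB(V285A), against 1.36 and 1.26 with CREB1(A297V). Its difference of 14.7 passed narrowly (adjusted p = 0.037) and kept its call in 7 of 16 other settings, but not when any 1 of the 4 arrays was left out (adjusted p = 0.114 to 0.182).

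The base before the half-site divided the 8-mers further. With the C/EBP half-site after 5mC, 61 of 63 tested 8-mers were higher in CEBPB(V285A) and 0 lower, with a median difference of 14.3, against a median of -0.034 over all 8-mers. After thymine 54 of 64 were higher (median 6.87), after adenine 25 of 64 (median 1.477) and after guanine 29 of 64 (median 1.64), and none of these was lower. After quantile normalization 54, 40, 18 and 21 of them were higher, in the same order of preceding bases. On the divided scale 13, 9, 0 and 0 were higher, and the median for adenine was then below 0 (-0.014). The reverse complements, in which the 5mC lies elsewhere in the same double strand, gave fewer calls. They were higher for 21 of 64 after 5mC (32.8%) and 23 of 64 after thymine (35.9%), with 0 lower, and 15 after thymine remained without CREB1(A297V) replicate 1. After adenine 2 of 64 were higher (3.12%) and 1 lower, and after guanine 1 of 60 was higher (1.67%) and 1 lower, close to the 4.13% and 1.44% of all 8-mers. Leaving out 1 array left 60 or 61 of the 63 after 5mC and 50 or 51 of the 64 after thymine, and at the least 14 of the 64 after adenine, without CREB1(A297V) replicate 1, and 17 of the 64 after guanine, without CEBPB(V285A) replicate 2. Without CEBPB(V285A) replicate 2 there were 16 after adenine.

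**Figure D2:**
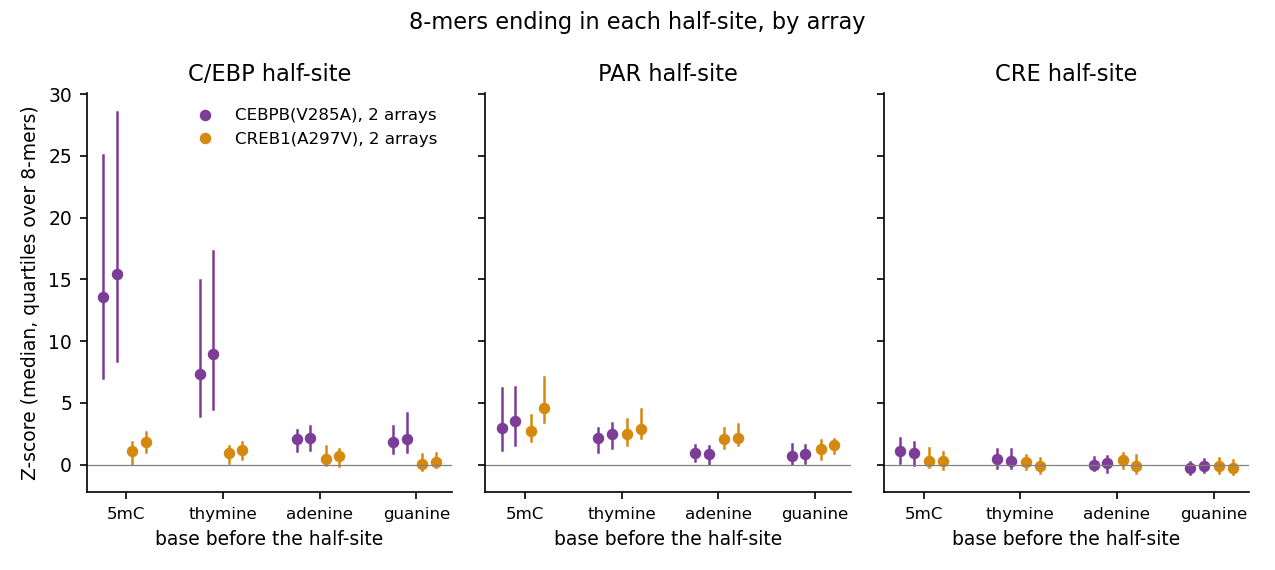
Z-scores (y axis) of 8-mers that end in the C/EBP, PAR or CRE half-site, by the base before the half-site (x axis). Each point is the median of 1 array over 63 or 64 8-mers and each line runs from the lower to the upper quartile, with the 2 CEBPB(V285A) arrays left of the 2 CREB1(A297V) arrays. The medians for the C/EBP half-site after 5mC are 13.6 and 15.4 for CEBPB(V285A), against 1.10 and 1.81 for CREB1(A297V).

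After 5mC the PAR half-site had a median Z-score was 2.96 and 3.56 on the CEBPB(V285A) arrays, against 2.76 and 4.54 on the CREB1(A297V) arrays, so the groups overlapped. Of its 63 8-mers 4 were higher (6.35%) and 5 lower (7.94%), against 4.13% and 1.44% of all 8-mers. After quantile normalization 0 of these were higher and 23 lower, and on the divided scale 0 and 26. Without CREB1(A297V) replicate 1 the deposited scores gave 1 higher and 12 lower, without CREB1(A297V) replicate 2 they gave 5 and 0, and without either CEBPB(V285A) array 2 and 2. The reverse complements of the PAR half-site after 5mC include ttaCgCaa, which ends in the C/EBP half-site. They went the other way, with 7 of 64 higher (10.9%) and 0 lower. After quantile normalization they gave 3 higher and 3 lower, and on the divided scale 1 and 7. After adenine, where the site has no CpG, the PAR half-site had a median of 0.902 and 0.817 with CEBPB(V285A), against 2.09 and 2.14 with CREB1(A297V), with 0 of 64 higher and 8 lower (12.5%). Of these 64 8-mers, 61 had a lower mean in CEBPB(V285A). Leaving out CREB1(A297V) replicate 1 left 5 lower, and leaving out any other of the 4 arrays left 2. The CRE half-site after 5mC had a median of 1.07 and 0.913 with CEBPB(V285A), against 0.277 and 0.285 with CREB1(A297V). Of its 63 8-mers 2 were higher (3.17%) and 0 lower, and these calls did not hold when any single array was left out. Its reverse complements, which include tgaCgCaa with the C/EBP half-site, gave 9 of 64 higher (14.1%) and 0 lower. After quantile normalization they gave 5 higher and 1 lower, and on the divided scale 1 and 2.

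Exchanging the half-site beside an unchanged left part compared preferences within each array. The C/EBP half-site in place of the PAR half-site raised the Z-score for 227 and 232 of 255 left parts on the CEBPB(V285A) arrays, against 30 and 22 on the CREB1(A297V) arrays. For 177 of the 255 left parts it raised the Z-score on both CEBPB(V285A) arrays and lowered it on both CREB1(A297V) arrays. The opposite pattern occurred for 1 left part. Over the 3 exchanges 51.0% of 765 tests were called, 47.2% higher in CEBPB(V285A) and 3.79% lower. For C/EBP in place of PAR 182 of 255 were called higher and 0 lower, with 159 and 0 after quantile normalization and 114 and 0 on the divided scale. By the last base of the left part the higher calls were 60 of 63 for 5mC, 56 of 64 for thymine, 34 of 64 for adenine and 32 of 64 for guanine.

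**Figure D3:**
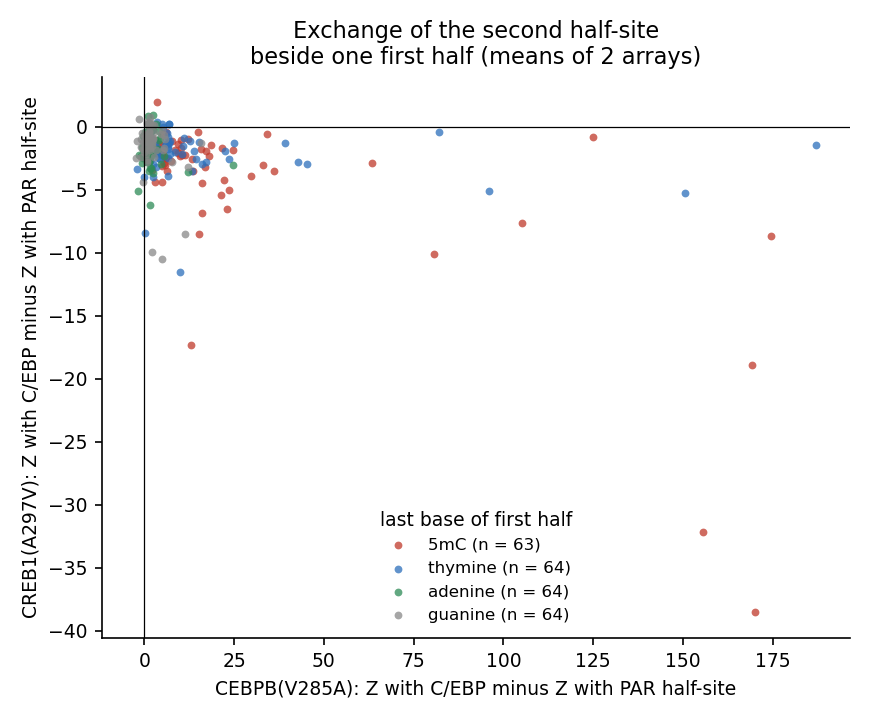
Change in Z-score when the C/EBP half-site replaces the PAR half-site beside one left part, for CEBPB(V285A) (x axis) and CREB1(A297V) (y axis), in Z units and means of 2 arrays. Each point is 1 of 255 left parts, coloured by its last base. Points to the right of 0 and below 0 gained with CEBPB(V285A) and lost with CREB1(A297V), and the lowest points lie at the left parts of ttaCgCaa (170.2 and -38.5) and tgaCgCaa (156 and -32.2).

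For the left part of the PAR palindrome, the step to ttaCgCaa and away from ttaCgtaa changed the Z-score by 166 and 174 with CEBPB(V285A), against -38.2 and -38.9 with CREB1(A297V). The mutants differed by 209 in this step (SE 16.3, adjusted p = 3.1e-08, limma over the 765 exchanges). For the left part of the C/EBP palindrome, the step to ttgCgCaa from ttgCgtaa gave 167 and 182 with CEBPB(V285A), against -6.52 and -10.9 with CREB1(A297V), and the mutants differed by 183 (adjusted p = 7.9e-13). Both calls stayed after quantile normalization and on the divided scale. For the left part of the CRE palindrome the step to tgaCgCaa from tgaCgtaa gave 176 and 136 with CEBPB(V285A), against -28.3 and -36.1 with CREB1(A297V). This difference of 188 was not called (SE 81.0, adjusted p = 0.067), and it was called after quantile normalization (adjusted p = 3.0e-04), on the divided scale (0.0019) and with only these 4 arrays in the fit (3.4e-04).

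Set against the CRE half-site, both mutants favoured the C/EBP half-site in most left parts, by unequal amounts. The exchange raised the Z-score for 246 and 246 of 255 left parts on the CEBPB(V285A) arrays, and for 163 and 192 on the CREB1(A297V) arrays. The step was larger in CEBPB(V285A) for 173 of 255 left parts and smaller for 1, with 136 and 1 after quantile normalization and 36 and 3 on the divided scale. The PAR half-site in place of the CRE half-site raised the Z-score for 220 and 222 left parts with CEBPB(V285A), and for 234 and 249 with CREB1(A297V). This step was larger in CEBPB(V285A) for 6 and smaller for 28, with 0 and 53 after quantile normalization and 0 and 84 on the divided scale. For 191 of 255 left parts the PAR half-site scored above the CRE half-site on all 4 arrays. The named steps from CRE to PAR were not called and turned sign with the scale: the mutants differed by 23.6 for the left part of ttaCgtaa (adjusted p = 0.076), 12.7 for that of tgaCgtaa (0.71) and 5.77 for that of ttgCgtaa (0.55), against -86.1, -54.8 and -31.7 after quantile normalization, where all 3 were called (adjusted p = 0.0078, 5.7e-04 and 0.038).

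Of the 10 largest called differences in which CEBPB(V285A) was lower, 9 held the PAR half-site in one or other orientation, and 5 held no CpG. The list skipped 8-mers that share 7 bases in a row with one already taken. The largest called was atgtgtaa, which holds no modified cytosine at all, with 2.48 and 2.97 with CEBPB(V285A), against 12.1 and 15.1 with CREB1(A297V). The difference was -10.9 (SE 2.23, adjusted p = 0.0022), and the 8-mer ranked 13th for CREB1(A297V). The call was lost after quantile normalization (difference -40.9, adjusted p = 0.20). The 8-mer attaCaaa, with the reverse complement of the PAR half-site, had 3.44 and 4.75 with CEBPB(V285A), against 9.10 and 15.95 with CREB1(A297V), a difference of -8.43 (adjusted p = 0.0018) that lost its call without CREB1(A297V) replicate 2 (-5.003, adjusted p = 0.108). Another without cytosine, ttagtaat, had 2.69 and 0.74 with CEBPB(V285A), against 7.62 and 10.9 with CREB1(A297V), a difference of -7.56 (adjusted p = 0.024) that was called in 10 of 16 other settings. It was not called without CEBPB(V285A) replicate 1 (0.0599), CEBPB(V285A) replicate 2 (0.225) or CREB1(A297V) replicate 2 (0.231). In all 3 the arrays of the mutants did not overlap. With a CpG before the half-site, atCgtaat had 3.17 and 3.48 with CEBPB(V285A), against 7.65 and 9.67 with CREB1(A297V), a difference of -5.34 (adjusted p = 3.2e-04). The 8-mer aattaCCa had 1.19 and 0.46 with CEBPB(V285A), against 6.23 and 5.98 with CREB1(A297V), a difference of -5.27 (adjusted p = 1.0e-04), which was called in all 16 other settings. The exception, CtaCgaaa, held no PAR half-site, with -0.25 and 0.60 with CEBPB(V285A), against 2.89 and 7.50 with CREB1(A297V) (difference -5.02, adjusted p = 4.8e-04). All 10 kept their sign in every setting that gave a value. Outside this list CtaCgtaa, which holds a CpG and the PAR half-site, had a larger difference of -17.5 that was not called. The difference was called in 6 of the other settings. Its Z-scores were 17.4 and 22.3 with CEBPB(V285A), against 28.6 and 46.1 with CREB1(A297V).

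Ranks within an array do not depend on its scale, and the lists of highest 8-mers were compared next. Of the 100 8-mers with the highest mean, 92 held the C/EBP half-site in this orientation for CEBPB(V285A), against 4 for CREB1(A297V). The PAR half-site in either orientation stood in 7 of the 100 for CEBPB(V285A), against 95 for CREB1(A297V). Single arrays gave 91 and 91 C/EBP half-sites for CEBPB(V285A), and 89 and 96 PAR half-sites for CREB1(A297V). A CpG stood in 70 of the 100 for CEBPB(V285A) and in 64 for CREB1(A297V), against 38.2% of all tested 8-mers. No cytosine at all stood in 0 of the 100 for CEBPB(V285A) and in 12 for CREB1(A297V), against 10.2% of all. The lists of the 2 mutants shared 7 8-mers, while the arrays of CEBPB(V285A) shared 91 of 100 and those of CREB1(A297V) 67. The 7 shared 8-mers all held a CpG, 4 of them held the C/EBP half-site, and 4 held the PAR half-site in either orientation.

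Beside the PAR half-site both mutants had the highest means at ttaCgtaa and tgaCgtaa. The 3rd place was ttatgtaa with CEBPB(V285A), with a mean of 35.1, and CtaCgtaa with CREB1(A297V), with a mean of 37.4. With CREB1(A297V) the values of CtaCgtaa (28.6 and 46.1) overlapped those of tgaCgtaa, so these places are not separated. The 8-mer tgtCgtaa, 4th of all with CREB1(A297V), had 9.97 and 14.9 with CEBPB(V285A), against 18.0 and 24.6 with CREB1(A297V), which was not called (difference -8.86, adjusted p = 0.22) and was called after quantile normalization (adjusted p = 0.035). Beside the C/EBP half-site the order with CEBPB(V285A) was ttaCgCaa, then tgaCgCaa, then ttgCgCaa. With CREB1(A297V) it was CtaCgCaa at 18.5, then ttaCgCaa at 10.5, then tgaCgCaa at 7.91, and the C/EBP palindrome was not among the first 5. On CEBPB(V285A) replicate 2 the order of tgaCgCaa (205) and ttgCgCaa (215) turned. With CREB1(A297V) the order was the same on both arrays, with 12.6 and 24.3 for CtaCgCaa, 7.94 and 13.1 for ttaCgCaa, and 6.68 and 9.14 for tgaCgCaa. Neighbouring places overlapped only between values of different CREB1(A297V) arrays.

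Single spots were read in the same way. Of the 100 brightest spots, 82 and 80 held the C/EBP half-site on the CEBPB(V285A) arrays, against 24 and 24 on the CREB1(A297V) arrays and 12.0% of all 40330 spots. The PAR half-site in this orientation stood in 20 and 20 of the brightest spots on the CEBPB(V285A) arrays, against 70 and 79 on the CREB1(A297V) arrays and 12.1% of all spots. The 3 brightest spots of each mutant by mean intensity are shown as examples, chosen after their values were seen. Again the capitals mark 5mC.
CEBPB(V285A), spot 1: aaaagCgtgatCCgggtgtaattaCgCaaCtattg
CEBPB(V285A), spot 2: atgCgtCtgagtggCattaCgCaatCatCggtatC
CEBPB(V285A), spot 3: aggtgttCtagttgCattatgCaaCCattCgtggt
CREB1(A297V), spot 1: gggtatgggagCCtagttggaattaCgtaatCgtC
CREB1(A297V), spot 2: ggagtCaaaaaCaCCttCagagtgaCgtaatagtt
CREB1(A297V), spot 3: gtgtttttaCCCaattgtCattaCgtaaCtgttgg
All 3 spots of CEBPB(V285A) held the C/EBP half-site and all 3 of CREB1(A297V) the PAR half-site and no C/EBP half-site. Spots 1 and 2 of CEBPB(V285A) also held the PAR half-site in one or other orientation. Spot 3 of CEBPB(V285A), with thymine before the half-site, had 65523 and 65523 intensity units with CEBPB(V285A), against 2504 and 4161 with CREB1(A297V). Spot 1 of CREB1(A297V), which holds the PAR palindrome, had 62604 and 46160 with CEBPB(V285A), against 65528 and 65528 with CREB1(A297V). The brightest values lie at the scanner limit: 19 and 11 spots reached 65000 on the CEBPB(V285A) arrays and 1 and 5 on the CREB1(A297V) arrays. The order of the CEBPB(V285A) spots shown therefore carries no information. With CREB1(A297V) all 3 spots were at the limit on replicate 2, and on replicate 1 spots 2 and 3 had 54405 and 53355.

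An 8-mer and its reverse complement are the same double-stranded sequence with 5mC on opposite strands, each scored over its own set of probes. The difference between their Z-scores was tested within arrays. On plain cytosine the members of a pair also differed. The CEBPB(V285A) means on C were 118 for ttaCgCaa and 48.6 for ttgCgtaa, and 44.8 for tgatgCaa and 15.8 for ttgCatCa. They were 57.7 for tgaCgCaa and 85.1 for ttgCgtCa. How much of a strand difference on 5mC comes from the placement of 5mC was not tested. Of 31615 pairs 1697 (5.37%) differed between the mutants, 809 upwards (2.56%) and 888 downwards (2.81%), with the direction set by which member is written first. With the C/EBP half-site after 5mC, 56 of 62 pairs had a larger difference in CEBPB(V285A) and 0 a smaller one. The 8-mer scored above its reverse complement in 62 and 62 of these pairs on the CEBPB(V285A) arrays, and in 49 and 59 on the CREB1(A297V) arrays. The median strand difference was 12.1 and 12.3 Z units on the CEBPB(V285A) arrays, against 1.16 and 1.52 on the CREB1(A297V) arrays. After quantile normalization 33 of the 62 pairs were called larger and on the divided scale 5, with 0 smaller in either. With the C/EBP half-site after thymine 40 of 64 pairs were larger and 5 smaller. With the CRE half-site after 5mC 1 of 62 pairs was larger and 7 smaller. With the PAR half-site after 5mC 4 of 62 pairs were larger and 11 smaller in CEBPB(V285A), with median strand differences of 0.803 and 1.55 in CEBPB(V285A), against 1.45 and 3.19 in CREB1(A297V). The lists share pairs: ttaCgCaa with ttgCgtaa stands under C/EBP and PAR, and tgaCgCaa with ttgCgtCa under C/EBP and CRE. The pair of ttaCgtCa and tgaCgtaa stands under PAR and CRE.

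**Figure D4:**
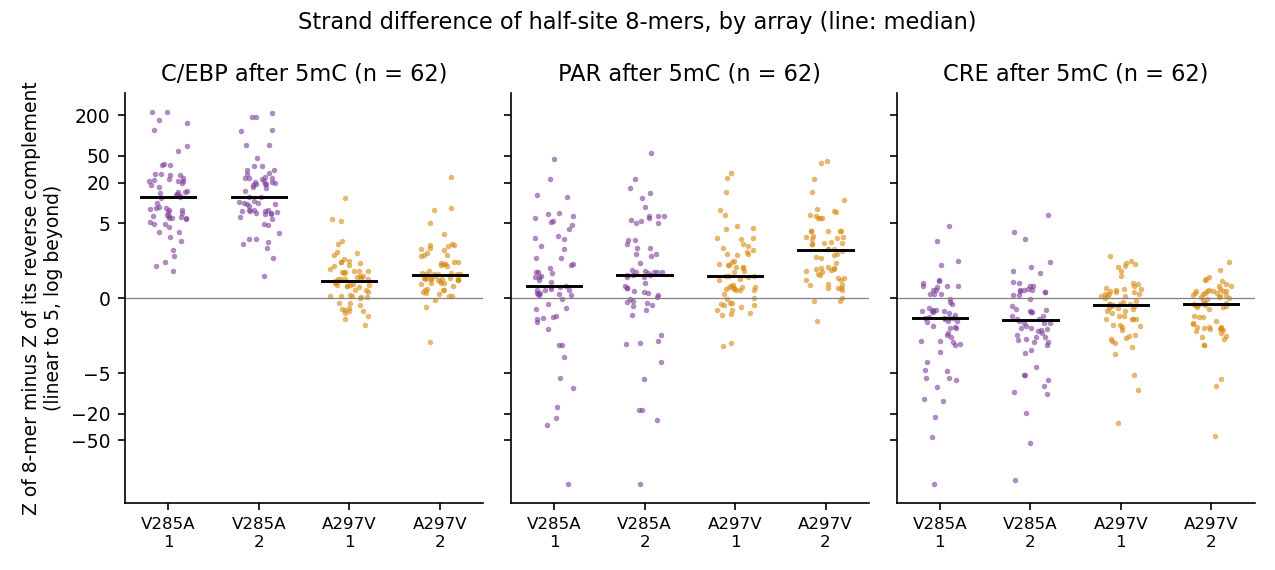
Z-score of an 8-mer minus that of its reverse complement (y axis, linear to 5 and logarithmic beyond) on each of the 4 arrays (x axis), for 8-mers that end in the C/EBP, PAR or CRE half-site after 5mC. Each point is 1 pair and each line is the median over 62 pairs. All pairs with the C/EBP half-site lie above 0 on the CEBPB(V285A) arrays.

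For ttaCgCaa the Z-score of the 8-mer exceeded that of its reverse complement ttgCgtaa by 222 and 218 with CEBPB(V285A), against -1.77 and -2.93 with CREB1(A297V). The mutants differed by 222 in this pair (SE 49.8, adjusted p = 0.0074), which was not called with only these 4 arrays in the fit (adjusted p = 0.11), nor without CREB1(A297V) replicate 1 (0.0887) or replicate 2 (0.0953). For aCgCaatC the Z-score of the 8-mer exceeded that of its reverse complement by 183 and 227 with CEBPB(V285A), against -0.40 and 3.76 with CREB1(A297V), and the mutants differed by 203 (SE 8.72, adjusted p = 1.1e-13). For ttatgCaa it was 153 and 157 with CEBPB(V285A), against -0.54 and -0.97 with CREB1(A297V), a difference of 156 (adjusted p = 8.6e-06). Both were called after quantile normalization and not on the inverse hyperbolic sine of the Z-score (adjusted p = 0.0945 for aCgCaatC and 0.0583 for ttatgCaa), and aCgCaatC was not called with only these 4 arrays (0.054). For tgaCgCaa it was 221 and 190 with CEBPB(V285A), against 5.32 and 7.88 with CREB1(A297V), a difference of 199 (adjusted p = 8.6e-09). This call was lost after quantile normalization (adjusted p = 0.091), on the divided scale (0.07) and with only these 4 arrays (0.097). The call was also lost from background-corrected intensities (adjusted p = 0.418) and on the inverse hyperbolic sine of the Z-score (0.414). For the composite site tgatgCaa it was 202 and 196 with CEBPB(V285A), against 1.85 and 1.90 with CREB1(A297V). That pair was not called in the fit over all 21 arrays (difference 197, SE 148, adjusted p = 0.55), and was with only these 4 arrays (adjusted p = 0.029, range 1.04e-14 to 0.773 over the other settings). In the other direction CtaCgtaa exceeded its reverse complement by 13.2 and 16.4 with CEBPB(V285A), against 23.4 and 38.8 with CREB1(A297V), a difference of -16.3 (adjusted p = 0.0031) that lost its call without CREB1(A297V) replicate 2 (-8.63, adjusted p = 0.136) and on the inverse hyperbolic sine of the Z-score (adjusted p = 0.781). The pair of ttaCgtCa and tgaCgtaa was not called, with strand differences of -45.0 and -54.6 with CEBPB(V285A), against -27.5 and -42.3 with CREB1(A297V), a difference of -15.0 (adjusted p = 0.86) that was above 0 after quantile normalization (59.6).

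The mutants also differed on plain cytosine, and the test of the difference between the forms asked where 5mC changed the contrast. On C the C/EBP half-site after cytosine had a median Z-score of 1.34 and 1.34 with CEBPB(V285A), against 0.420 and 0.570 with CREB1(A297V), far closer than on 5mC. The difference between the mutants was larger on 5mC for 60 of these 63 8-mers and smaller for 0, against 1.66% and 2.06% of all 64511 8-mers. The CRE half-site went the other way. On C its median after cytosine was 11.6 and 10.0 with CEBPB(V285A), against 0.660 and 1.16 with CREB1(A297V), and the difference between the mutants was smaller on 5mC for 50 of 63 and larger for 0. The PAR half-site after cytosine had a median of 3.07 and 3.79 on C with CEBPB(V285A), against 1.36 and 1.89 with CREB1(A297V), with 18 of 63 smaller on 5mC and 1 larger. The total of 2402 calls (3.72%) became 51 on the divided scale and 434 on the inverse hyperbolic sine of the Z-score.

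**Figure D5:**
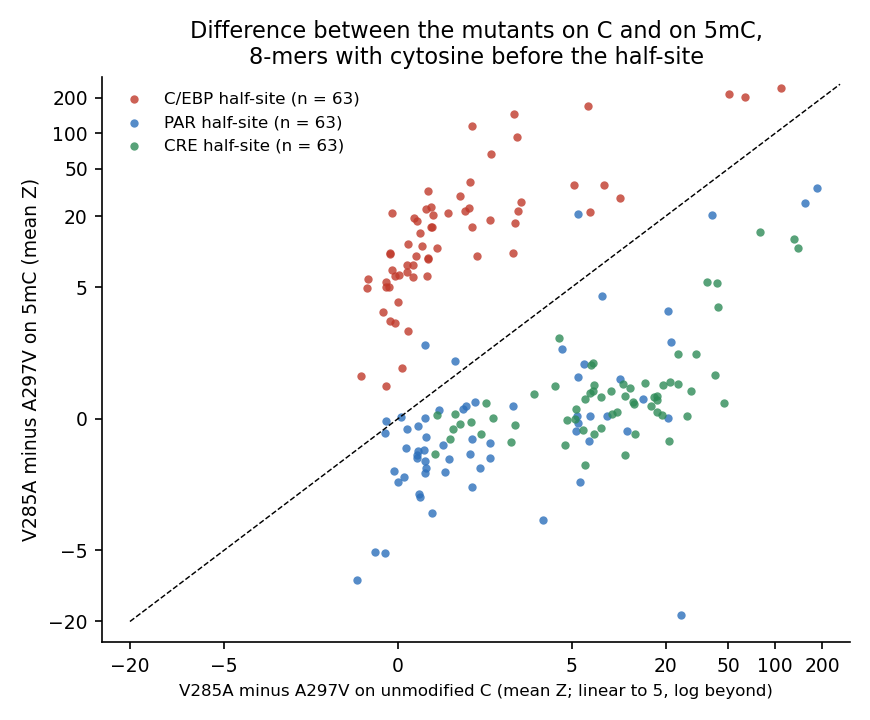
Difference between the mutants, CEBPB(V285A) minus CREB1(A297V), on plain cytosine (x axis) and on 5mC (y axis), in mean Z units with both axes linear to 5 and logarithmic beyond. Each point is 1 of 63 8-mers per half-site with cytosine before the half-site, and the dashed line marks equal differences. The C/EBP half-sites lie above the line and the CRE half-sites below it.

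The 4 groups are clearest at 3 sites. The changes at all 3 sites are on the deposited scale. The PAR palindrome ttaCgtaa on C had 251 and 232 with CEBPB(V285A), against 62.8 and 47.5 with CREB1(A297V). The difference was 186 on C and 34.2 on 5mC, so on this scale the contrast shrank by 152 (a change of -152, adjusted p = 5.6e-10). After quantile normalization and on the divided scale the difference on 5mC was below 0 (-91.1 and -3.49), and the change against C there is not given. CEBPB(V285A) had a mean of 83.3 on 5mC and 241 on C at this site, and CREB1(A297V) 49.0 on 5mC and 55.1 on C. The CRE palindrome tgaCgtCa on C had 174 and 135 with CEBPB(V285A), against 22.95 and 23.3 with CREB1(A297V), and the contrast changed by -119 on 5mC (adjusted p = 4.0e-04). The composite site tgatgCaa on C had 42.0 and 47.6 with CEBPB(V285A), against 2.09 and 2.66 with CREB1(A297V), and the contrast grew by 159 on 5mC (adjusted p = 8.5e-08). The CREB1(A297V) arrays on C and 5mC carried 1 array-series number and the CEBPB(V285A) arrays a different number for each form, so for CEBPB(V285A) the form of cytosine and the array series cannot be told apart.

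Lists of other sites were read in the same limma fit, beside 4.13% higher and 1.44% lower over all 8-mers. AP-1 sites, the targets of JUN and FOS, gave 0 calls among 16 8-mers and 0 at an unadjusted p under 0.05. E-boxes, bound by basic helix-loop-helix proteins, gave 0 calls among 48, with 4 at an unadjusted p under 0.05 and 2 higher calls from background-corrected intensities. ETS sites gave 0 higher and 5 lower among 94 (5.32% lower, median -0.303), and at most 3 lower with 1 array left out. The 8-mers of adenine and thymine alone, which can carry no modified cytosine, gave 19 higher and 1 lower of 255 (7.45% and 0.392%), and between 3 and 12 higher with 1 array left out. The C/EBP-ATF composite list gave 17 higher and 0 lower of 30 (56.7% higher), with a median of 3.51, and it overlaps the C/EBP lists.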

How the data were processed

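Fluorescence of the labelled protein was measured on arrays of 40330 spots, each probe with 35 variable bases. Per the file headers, the authors deposited the median intensity of each spot and of its local background, neither subtracted nor scaled. The authors also deposited a matrix of Z-scores per 8-mer and array, a score whose derivation is not given in the sources used here. Names in the matrix matched the printed sequences read backwards (r 0.677 to 0.802 with the median probe intensity on the 4 arrays, against at most 0.336 for other readings), and 8-mers are given as the complement. That this is the synthesised strand assumes that the printed sequence is the template, read from 5′ to 3′, which was not tested. Otherwise the lists and their reverse complements are exchanged, and strand differences take the opposite sign.

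The deposited Z-scores of 8-mers with at least 8 probes (median 17, at most 41) were fitted with limma 3.58.1 in R 4.3.3 over all 21 arrays, 1 coefficient per group, with a mean-variance trend and 11 residual degrees of freedom. Tests were two-sided, adjusted by Benjamini-Hochberg over all features, and called at an adjusted p under 0.05. Strand differences, exchanges of half-sites and the contrast with C were tested the same way. Python 3.11.15 with pandas 2.3.3 and numpy 2.4.6 did the counting. The fit was tested on simulated data.

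The 8-mers named are the 11 fixed ones, the 10 highest of each mutant, the 10 called with the largest difference in each direction, the 5 largest in each direction after quantile normalization, the 5 pairs with the largest strand difference in each direction, and the 5 largest changes against C in each direction, skipping those that share 7 bases in a row with one already taken. Shared 8-mers, left parts in order and spots are described outside this rule. The members and lists were chosen with earlier results of these data known. The number of arrays, 2 per mutant, limits the precision, as do local background and spots at the scanner limit. Other groups of the series entered the fit for its spread. The series holds no array of wild-type CEBPB on 5mC, so the mutants could not be set against it. Pairing by replicate number was checked: the deviations of same-numbered arrays correlated at 0.0928, so the numbers were not taken as pairs.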

Additional observations from a re-analysis of the deposited data

Results flagged for a closer look

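The difference between the mutants was not the same on 5mC as on plain cytosine for 2402 8-mers, by the limma test of the difference itself. The largest increases of the difference, CEBPB(V285A) minus CREB1(A297V), from C to 5mC were 197 for aCgCaatC, 164 for CtaCgCaa, 163 for tgaCgCaa, 159 for tgatgCaa and 155 for ttatgCaa. All 5 hold the C/EBP half-site. The largest decreases were -152 for ttaCgtaa, -130 for ttaCgtCa, -119 for tgaCgtCa, -97.1 for aCgtCaCa and -88.7 for gatgaCgt. Of these, ttaCgtaa holds the PAR half-site and the others the CRE half-site in one orientation. The 8-mer aCgtCaCa had 17.0 and 9.23 on 5mC with CEBPB(V285A), against 4.74 and 2.46 with CREB1(A297V), and 133 and 93.8 on C with CEBPB(V285A), against 5.47 and 8.49 with CREB1(A297V). Only groups of 4 or more arrays allow a search for single outlying arrays, and these groups had 2.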

How the results depend on the processing

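The scale between arrays was the choice that moved results most, and the scale divided by the mean of the 100 highest Z-scores was added after seeing the data. On that divided scale the calls were 620 for the main comparison, 112 for strand differences, 51 for the change against C and 237 for half-site exchanges. Quantile normalization gave 990 strand differences and 1044 changes against C, background-corrected intensities 930 and 1050, the inverse hyperbolic sine 437 and 434, and recomputed Z-scores 1413 changes against C. With the replicate number as a block, which is not a pairing here, the main comparison had 6113 calls, strand differences 2777, the change against C 3147 and exchanges 416. Leaving out 1 array gave 1856 to 2342 calls in the main comparison and 968 to 1197 strand differences. It gave 1717 to 2129 changes against C and 319 to 355 exchanges. The share of the highest CEBPB(V285A) 8-mers with the C/EBP half-site was 94.0% among 50, 85.5% among 200 and 90.0% by background-corrected intensities.

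Signs turned as follows, in the order quantile normalization, divided scale, background-corrected intensities (log2) and recomputed Z-scores as far as they turned. For ttaCgtaa they were -91.1, -3.49, -1.60 and -4.44, and for tgaCgtaa -64.6, -2.84, -1.68 and -4.12. For ttgCgtaa the first 3 were -25.01, -0.734 and -0.617. For tgaCgtCa the first 2 were -9.76 and -0.383, and for ttaCgtCa -4.99 and -0.335. CtaCgCaa turned after quantile normalization alone (-2.45), and ttgCatCa on the divided scale alone (-0.053). The step from CRE to PAR, in the same order with the inverse hyperbolic sine before the recomputed Z-scores, was -86.1, -3.16, -1.76, -0.668 and -5.36 for the left part of ttaCgtaa, -54.8, -2.46, -1.92, -0.806 and -6.98 for that of tgaCgtaa, and -31.7, -0.806, -2.10, -1.40 and -4.76 for that of ttgCgtaa. The strand difference of ttaCgtCa, below 0 on the deposited scale, was 59.6, 2.51, 1.84 and 0.696 on the first 4 of these scales. The causes were not tested. The change against C was refitted under the other settings, and for single 8-mers only its values on the deposited scale are given here. Recomputed Z-scores were not run for strand differences. The strand difference of tgatgCaa, not called over all arrays, was called in 6 of the other settings. Signal over background limits the CREB1(A297V) arrays, whose local background was close to the median spot (1859 and 2358 intensity units).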
